A study of Mus musculus with 18 samples.

Results

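Spp1, which encodes osteopontin, and 8 further genes of bone, cartilage and fibrous matrix (Ibsp, Alpl, Runx2, Sp7, Sparc, Sox9, Postn and Tnfrsf11b) were followed through mouse embryonic fibroblasts under endoplasmic reticulum (ER) stress. The 9 genes were chosen by name, with their values in this dataset already known, so their levels are given as a description and no test of them was made. Each was found by its symbol in 1 of the 51499 loci of the table. Of the 9, 6 had a mean of at least 1 FPKM (a fragment count scaled by transcript length and by the size of the library) over the groups, as had 11929 of all loci. Alpl, Sp7 and Ibsp stayed under 1 FPKM in every group.

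The study asked whether AGO2, the Argonaute protein that cuts mRNAs paired to a small RNA, lowers certain mRNAs when the ER is stressed. Cells labelled Ago2+/+ and cells labelled Ago2-/-, a deletion of Ago2 carried through all treatments, were grown for 3 days and given the solvent DMSO, tunicamycin or thapsigargin. Tunicamycin blocks N-linked glycosylation, and thapsigargin, used at 500 nM, empties the ER of its calcium. These 6 groups hold 3 libraries each, and neither the strain nor the age of the embryos is stated in the labels or methods. The study describes its replicates in general as biological, without saying for these libraries whether each came from its own culture. The labels name the cells only as mouse embryonic fibroblasts, so that any difference between both genotypes is also a difference between cell populations. The table gives 1 pooled FPKM for each group, made by the authors. No spread between replicates, no depth and no p-value of its own can therefore stand beside any value below. The authors' own p-values and q-values were not used, so no difference between groups is set against replicate error here.

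Ago2 itself went against the labels. Under DMSO, tunicamycin and thapsigargin it was 22.1, 5.75 and 17.0 FPKM in the cells labelled Ago2+/+ and 5.61, 15.5 and 20.7 FPKM in those labelled Ago2-/-. Transcripts of the Xist locus were at 46.6 FPKM in Ago2+/+ DMSO and 33.5 in Ago2-/- thapsigargin and at most 0.0574 elsewhere, and 4 Y-linked genes were above 0 only in Ago2+/+ thapsigargin and Ago2-/- tunicamycin. For 4 libraries the labels also conflict on the genotype. Across those 11929 loci, 3 pairs of groups that cross the labels lay close together: Ago2-/- DMSO with Ago2+/+ tunicamycin, Ago2-/- tunicamycin with Ago2+/+ thapsigargin, and Ago2-/- thapsigargin with Ago2+/+ DMSO. Between 0.998% and 1.87% of loci differed at least 2-fold within these close pairs, against 12.9% to 17.9% in the other 12 pairs, on a log2 scale after adding 1 FPKM. Each group below is therefore named by its label only. Whether a difference belongs to the genotype, the stressor or the cells cannot be told apart here.

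Markers of fibroblasts were present, with 8 of 10 at 1 FPKM or more in at least 1 group and their sum between 1597 and 2975 FPKM. Only 5 of the 10 reached 1 FPKM in every group. Vim, the intermediate filament protein vimentin, was the most abundant in each group and ranged from 952 to 2634 FPKM. The collagen I genes varied more, Col1a1 from 5.97 to 651 FPKM and Col1a2 from 23.7 to 577, both lowest in Ago2-/- DMSO and highest in Ago2-/- tunicamycin, which are the groups with the highest and the second-lowest Spp1. Their part in the levels below was not tested. Thy1 was listed at 0 in all groups and Lum reached only 0.014. The 6 osteoclast markers summed to between 0.335 and 1.21 FPKM and the 6 macrophage markers to between 1.25 and 2.39. Adgre1 was listed at 0 throughout, and Cd68, at 1.13 to 1.82 FPKM, was the one macrophage marker above 1. All 12 genes that every cell uses and that were looked up, Actb and Gapdh among them, stood at 5.09 FPKM or more in every group.

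Osteopontin is a phosphorylated, acidic glycoprotein that is secreted into mineralised matrix and by many activated cells, where it binds integrins and CD44. In the bone lineage RUNX2 and, downstream of it, SP7 drive mesenchymal cells to become osteoblasts, which make alkaline phosphatase (Alpl) and bone sialoprotein (Ibsp), while SOX9 drives the cartilage fate. SPARC (osteonectin) and periostin (Postn) are matricellular proteins, which tune how cells meet collagen rather than build the scaffold, and osteoprotegerin (Tnfrsf11b) is the decoy receptor that keeps RANKL from driving osteoclast formation.

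The bases just upstream of a start site are where a promoter's TATA box, CCAAT box and factor sites would be looked for, and 4 such sequences are shown because their genes cover the range of levels described below. Spp1 was abundant, and Ibsp, from the same run of genes on the chromosome, was listed at 0. Runx2 encodes the factor that reads the RUNX core, and Postn was measured at over 1 FPKM in a pair of groups only. RefSeq entries (build GRCm38.p6) were found for 6 of the 9 members, with none for Sp7, Sox9 and Tnfrsf11b. Spp1, Postn and Alpl have 2 entries each, and for Spp1 and Postn the one that holds a match is shown. Each sequence is the 250 bases before the start, read 5′ to 3′ on the strand of the gene. Capitals mark matches to the RUNX core, which is TGTGGT, to a TATA box, which is TATAAA, or to the CCAAT box, on either strand, so that a match on the other strand appears as its reverse complement. The windows lie at chr5:104434861-104435110 (plus strand) for Spp1, chr5:104299037-104299286 (plus) for Ibsp, chr17:44814628-44814877 (minus) for Runx2 and chr3:54360857-54361106 (plus) for Postn.
Spp1: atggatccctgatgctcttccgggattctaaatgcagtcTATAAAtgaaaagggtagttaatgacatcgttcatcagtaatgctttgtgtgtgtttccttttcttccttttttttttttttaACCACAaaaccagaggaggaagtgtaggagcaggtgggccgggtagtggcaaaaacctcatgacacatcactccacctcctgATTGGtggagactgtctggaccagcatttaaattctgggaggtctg
Ibsp: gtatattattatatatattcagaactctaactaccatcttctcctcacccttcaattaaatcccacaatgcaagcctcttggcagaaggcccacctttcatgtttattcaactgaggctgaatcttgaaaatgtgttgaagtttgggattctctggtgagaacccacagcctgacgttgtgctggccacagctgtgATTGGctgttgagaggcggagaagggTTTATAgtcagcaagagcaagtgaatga
Runx2: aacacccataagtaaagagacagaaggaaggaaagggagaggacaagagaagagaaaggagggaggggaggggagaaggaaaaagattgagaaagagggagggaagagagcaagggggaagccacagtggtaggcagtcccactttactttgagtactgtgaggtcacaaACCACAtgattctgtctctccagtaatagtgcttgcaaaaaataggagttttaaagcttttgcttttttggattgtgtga
Postn: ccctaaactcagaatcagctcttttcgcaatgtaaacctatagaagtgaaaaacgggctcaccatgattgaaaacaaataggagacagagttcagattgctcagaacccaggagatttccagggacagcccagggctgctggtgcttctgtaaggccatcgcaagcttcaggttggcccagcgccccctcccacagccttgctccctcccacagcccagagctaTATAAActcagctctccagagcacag

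In the Spp1 window TATAAA began 211 bases upstream, the RUNX core 128 and the CCAAT match 46 bases upstream, the last pair read from the other strand. The Ibsp window held a CCAAT match 54 and a TATA match 28 bases upstream, both on the other strand. That of Runx2 held a RUNX core 80 bases upstream, and that of Postn a TATA box 26 bases upstream. No match overlapped another in these windows. Among 32851 RefSeq windows of the same length, 14% held the RUNX core, 12.4% the TATA box and 33.8% the CCAAT box, and the window of Sparc held none of them. The other Spp1 window (chr5:104435942-104436191) and the other Postn window (chr3:54359017-54359266) also held none. These matches describe letters and say nothing about binding.

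Spp1 (ENSMUSG00000029304, chr5:104435118-104441050, plus strand, GRCm38) had the widest range of the 9 genes. In the cells labelled Ago2+/+ it was 256 FPKM with DMSO, 1214 with tunicamycin and 16.0 with thapsigargin. In those labelled Ago2-/- it was 2015 FPKM with DMSO, 20.1 with tunicamycin and 461 with thapsigargin. The 2 groups of the lowest level are thus the thapsigargin group of one label and the tunicamycin group of the other, and the 4 remaining groups lay at least 12.7-fold above both. The highest level was 126-fold the lowest, a range of 6.89 on the log2(FPKM + 1) scale against a median range of 0.73 over the 11929 loci, which placed Spp1 28th among them by range. Its place among all loci within a group moved from 27th in Ago2-/- DMSO to 5886th in Ago2+/+ thapsigargin. The locus also holds Gm42793, a gene model on the same strand, whose fragments cannot be separated from those of Spp1. In bulk RNA, fewer cells that express a gene and less of its RNA per cell cannot be told apart.

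Read by label, Spp1 was 4.74-fold higher with tunicamycin than with DMSO in Ago2+/+ and 100.2-fold lower in Ago2-/-. Thapsigargin groups were lower than their DMSO groups under both labels, 16.0-fold in Ago2+/+ and 4.37-fold in Ago2-/-. Between the labels, the Ago2-/- group was 7.86-fold higher under DMSO, 60.4-fold lower under tunicamycin and 28.8-fold higher under thapsigargin. The sign of the difference between labels thus turned with the treatment. Within the close pairs Spp1 differed by less, by 1.66-fold for Ago2-/- DMSO beside Ago2+/+ tunicamycin, 1.26-fold for Ago2-/- tunicamycin beside Ago2+/+ thapsigargin, and 1.80-fold for Ago2-/- thapsigargin beside Ago2+/+ DMSO. In the order of levels these are the neighbouring groups, and with no replicate spread used here, whether neighbours differ was not tested.

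**Figure D1:**
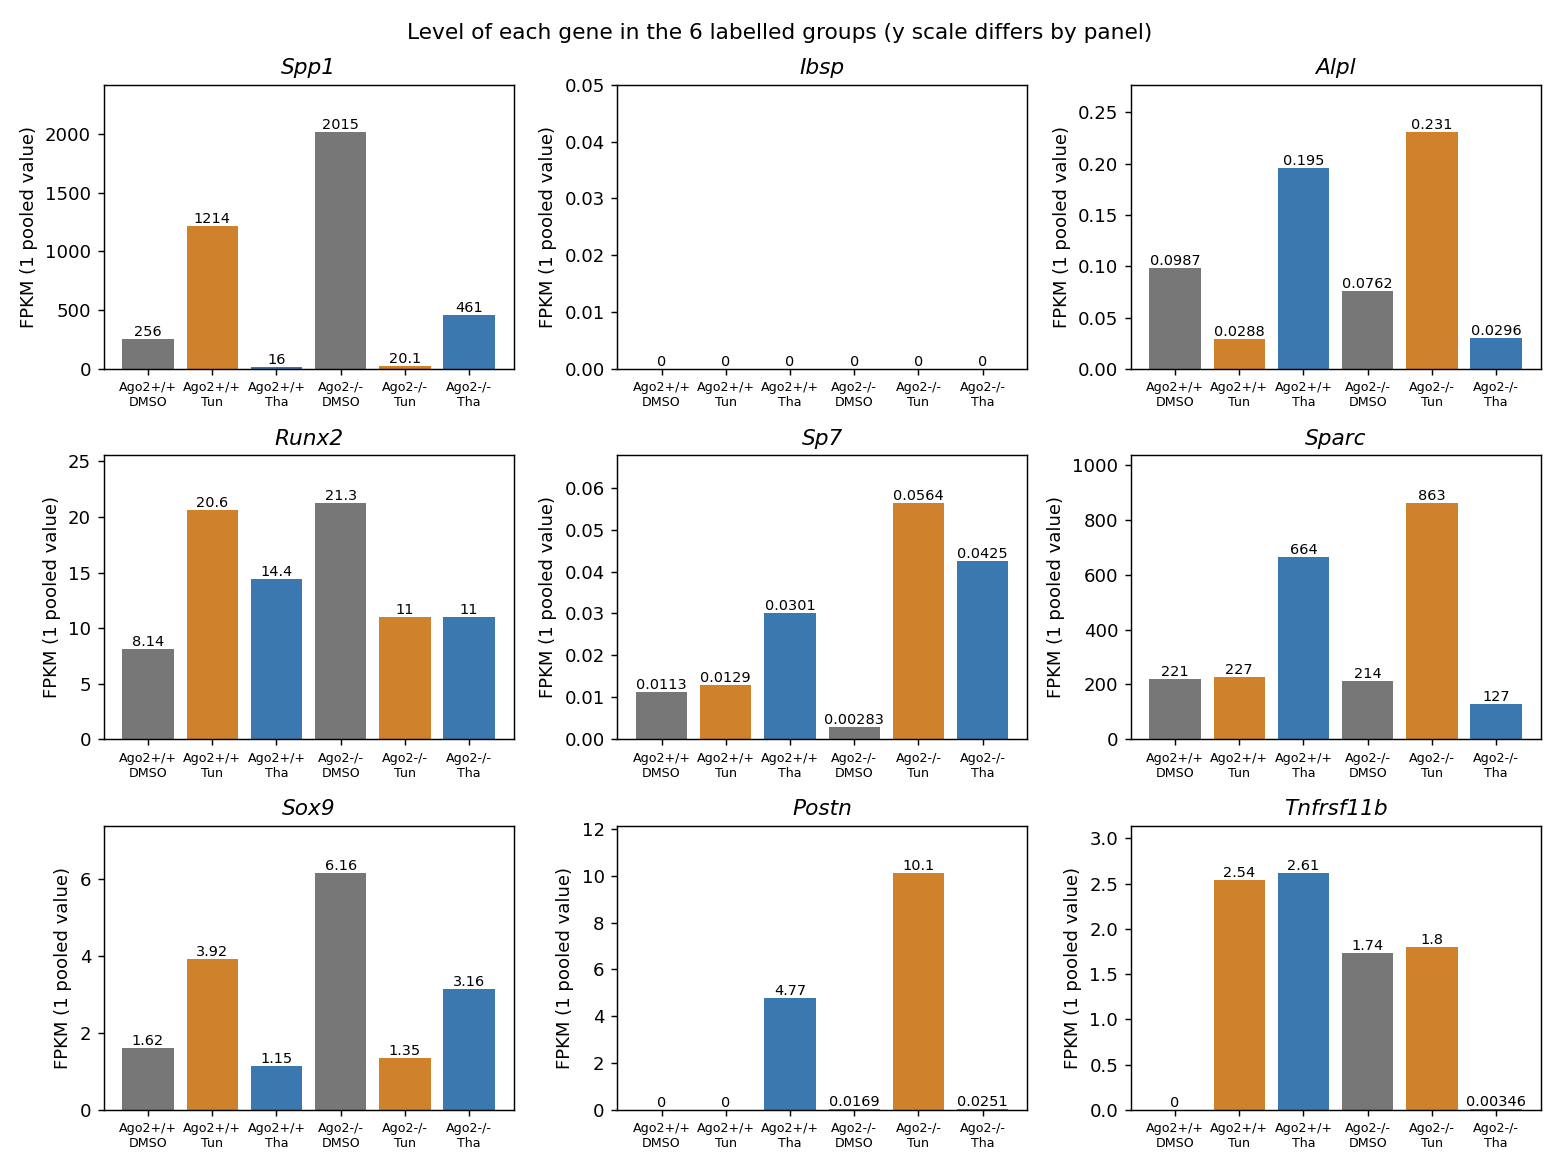
FPKM of the 9 genes (y axis, its scale set for each panel and starting at 0) in the 6 labelled groups (x axis), with 1 bar for the authors' pooled value of each group and no error bar, since none can be given; Tun is tunicamycin and Tha thapsigargin. Spp1 stands at 2015 and 1214 FPKM in Ago2-/- DMSO and Ago2+/+ tunicamycin and at 16.0 and 20.1 in Ago2+/+ thapsigargin and Ago2-/- tunicamycin, while Ibsp is at 0 in every group.

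Ibsp (ENSMUSG00000029306, chr5:104299171-104311469, plus strand), the gene of bone sialoprotein, was listed at 0 in all 6 groups. It belongs with Spp1 to a run of genes for acidic phosphoproteins of bone and tooth on chromosome 5. Dspp, the gene of dentin sialophosphoprotein, lies 264 kb below Spp1 and was also listed at 0 in every group. Dmp1 (dentin matrix protein, 233 kb below) reached 0.0108 FPKM and Mepe (110 kb below), a matrix phosphoglycoprotein of osteocytes, 0.00546. Spp1 was therefore the one gene of this cluster measured above 1 FPKM. Beyond the cluster, Sparcl1, a relative of Sparc 356 kb below Spp1, reached 0.0216 FPKM. Pkd2, the polycystin channel gene 24.3 kb above Spp1, was between 21.9 and 29.7 FPKM, a narrow range beside that of Spp1. Abcg2 lies on chromosome 6 in this build and is no neighbour in the mouse.

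**Figure D2:**
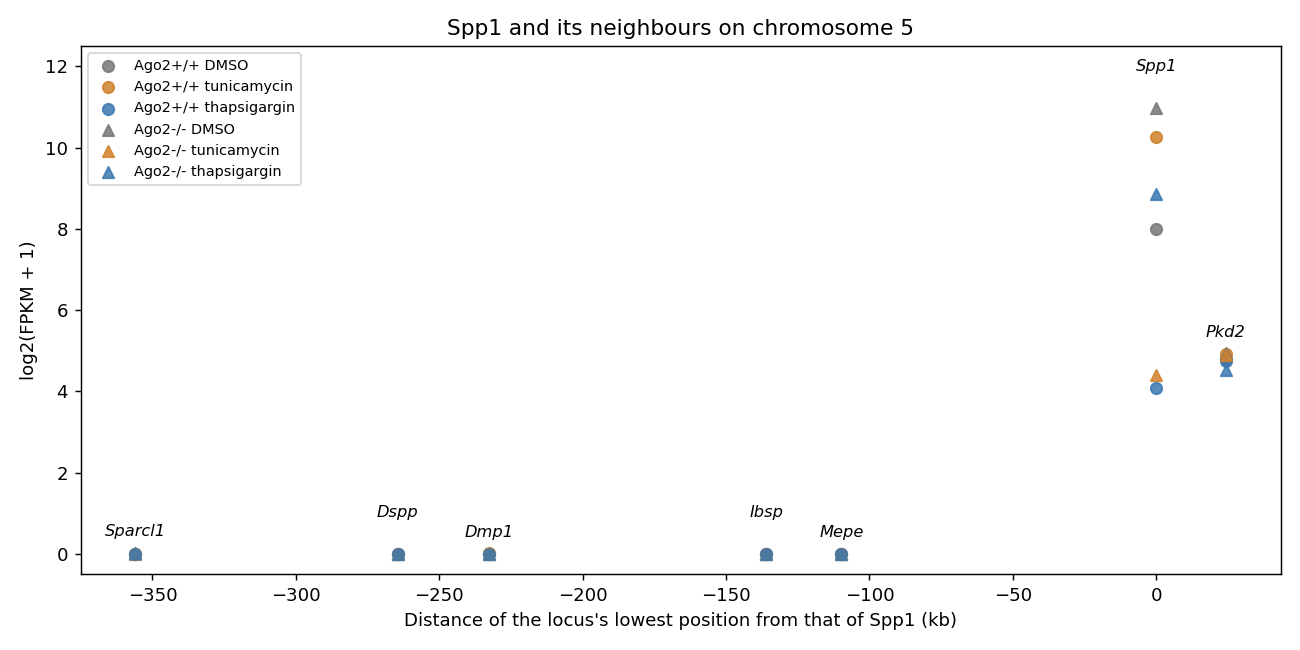
Levels on the log2(FPKM + 1) scale (y axis) of Spp1 and its chromosomal neighbours against the distance in kb between the lowest position of each locus and that of Spp1 (x axis); circles are the groups labelled Ago2+/+, triangles those labelled Ago2-/-, and colours the treatments. Only Spp1, spread over a log2 range of 6.89, and Pkd2, between 21.9 and 29.7 FPKM, rise above the baseline.

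Sparc (ENSMUSG00000018593, chr11:55394500-55423183, minus strand), the gene of a collagen-binding matricellular protein, was high in every group. Under DMSO, tunicamycin and thapsigargin it was 221, 227 and 664 FPKM in Ago2+/+ cells and 214, 863 and 127 FPKM in Ago2-/- cells. The groups with most Sparc were those with least Spp1. Against DMSO, thapsigargin was 3.00-fold higher in Ago2+/+ and 1.68-fold lower in Ago2-/-, and tunicamycin 1.03-fold and 4.04-fold higher. Between labels the Ago2-/- group was 3.80-fold higher under tunicamycin and 5.21-fold lower under thapsigargin, but the DMSO groups stood within 1.04-fold of each other. Within the close pairs the widest gap was 1.74-fold, with Ago2-/- thapsigargin below Ago2+/+ DMSO.

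Postn (ENSMUSG00000027750, chr3:54361109-54391037, plus strand) encodes periostin, a matricellular protein of periosteum, tendon and healing tissue. It was 4.77 FPKM in Ago2+/+ thapsigargin and 10.1 in Ago2-/- tunicamycin. In Ago2-/- DMSO it stood at 0.0169 FPKM and in Ago2-/- thapsigargin at 0.0251, and it was listed at 0 in Ago2+/+ DMSO and Ago2+/+ tunicamycin. The groups above 1 FPKM are again those with the lowest Spp1 and the highest Sparc. Between them the level differed 2.12-fold, the widest gap that any member above 1 FPKM showed within a close pair. No fold is given against the groups at 0.

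Alpl (ENSMUSG00000028766, chr4:137741733-137796384, minus strand), the phosphatase that frees phosphate for mineral and a standard osteoblast marker, was at most 0.231 FPKM. That value was in Ago2-/- tunicamycin, followed by 0.195 in Ago2+/+ thapsigargin, 0.0987 in Ago2+/+ DMSO, 0.0762 in Ago2-/- DMSO, 0.0296 in Ago2-/- thapsigargin and 0.0288 in Ago2+/+ tunicamycin. The order of the groups at this level carries no weight, since the depth behind the values is unknown.

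Runx2 (ENSMUSG00000039153), the master regulator of the osteoblast lineage, was expressed in every group. Under DMSO, tunicamycin and thapsigargin it was 8.14, 20.6 and 14.4 FPKM in Ago2+/+ cells and 21.3, 11.0 and 11.0 FPKM in Ago2-/- cells. The 2 groups highest in Runx2 were also highest in Spp1, but below them the orders parted, since Ago2+/+ DMSO was lowest in Runx2 but not in Spp1. By label, Runx2 was 2.53-fold higher with tunicamycin and 1.77-fold higher with thapsigargin in Ago2+/+, and 1.93-fold lower with either stressor in Ago2-/-. The Ago2-/- level was 2.61-fold that of Ago2+/+ under DMSO. The locus of the table spans chr17:44495987-45119290 on the minus strand, which runs past the end of Runx2 in GENCODE and across 6 other gene models, 4 of them on the opposite strand, Supt3 and the antisense RNAs Runx2os1, Runx2os2 and Runx2os3. As neither the labels nor the methods state the strandedness of the libraries, fragments of these genes cannot be told apart from those of Runx2.

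Sp7 (ENSMUSG00000060284, chr15:102356609-102366325, minus strand) encodes osterix, the zinc finger factor that osteoblasts need downstream of RUNX2. It stayed between 0.00283 and 0.0564 FPKM. The Runx2 locus, with the other gene models that it spans, was thus above 8 FPKM in each group in which Sp7, Alpl and Ibsp were all under 1. With the defining markers of osteoblasts near 0, the 9 genes are described one by one and not as an osteoblast program.

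Sox9 (ENSMUSG00000000567, chr11:112782224-112787760, plus strand), the regulator of the cartilage fate, was 1.62 FPKM with DMSO, 3.92 with tunicamycin and 1.15 with thapsigargin in Ago2+/+ cells. The groups labelled Ago2-/- had 6.16, 1.35 and 3.16 FPKM in the same order of treatments. The order of the groups was that of Spp1 in full, over a smaller range of 1.73 on the log2(FPKM + 1) scale. Against DMSO, tunicamycin was 2.42-fold higher in Ago2+/+ and 4.56-fold lower in Ago2-/-, and thapsigargin was lower under both labels, by 1.41-fold and 1.95-fold. The close pairs differed by 1.57-fold, 1.17-fold and 1.95-fold.

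Tnfrsf11b (ENSMUSG00000063727, chr15:54250619-54278484, minus strand), the gene of osteoprotegerin, was above 1 FPKM in 4 groups. It was 2.54 FPKM in Ago2+/+ tunicamycin, 2.61 in Ago2+/+ thapsigargin, 1.74 in Ago2-/- DMSO and 1.80 in Ago2-/- tunicamycin. In Ago2-/- thapsigargin it was 0.00346 FPKM, and it was listed at 0 in Ago2+/+ DMSO. The 4 groups above 1 FPKM lay between 1.74 and 2.61, and the last 2 groups form a close pair.

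**Figure D3:**
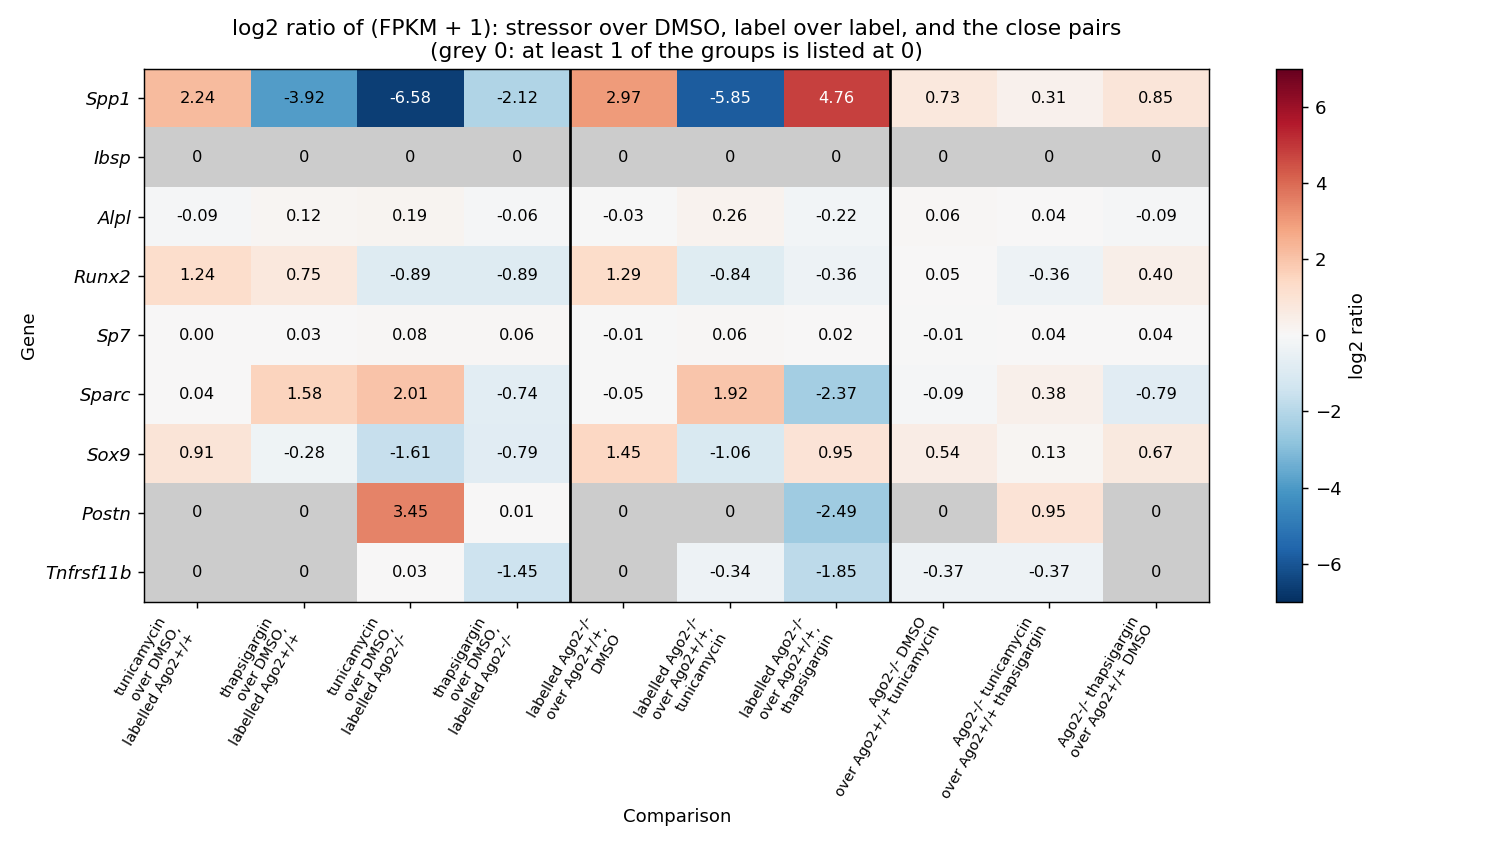
Heat map of log2 ratios of FPKM + 1 for the 9 genes (rows) in 4 comparisons of a stressor with DMSO, 3 of the labels under 1 treatment and the 3 close pairs (columns), with red for a higher numerator; grey cells marked 0 have a group listed at 0. Spp1 runs from -6.58 to 4.76 in the comparisons by label and from 0.31 to 0.85 in the close pairs.

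Counts were then made with a limit of 2-fold on the log2(FPKM + 1) scale, beside the share of the 11929 loci that passed it. Since the genes were chosen with these values known, nothing is read from the counts about the genes as a set. With tunicamycin in Ago2+/+, Spp1, Runx2 and Tnfrsf11b were higher and no member lower, where 7.7% of loci were higher and 6.32% lower. With thapsigargin in Ago2+/+, Sparc, Postn and Tnfrsf11b were higher and Spp1 lower, against 7.44% and 5.46% of loci. Under tunicamycin in Ago2-/-, Sparc and Postn were higher and Spp1 and Sox9 lower, against 9.5% and 8.36%. Under thapsigargin in Ago2-/-, no member was higher and Spp1 and Tnfrsf11b were lower, against 6.31% and 7.99%. Both stressors were set against the same DMSO group within a label, so these comparisons are not independent.

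Between labels, Ago2-/- over Ago2+/+, the DMSO groups had Spp1, Runx2, Sox9 and Tnfrsf11b higher and none lower, where 7.99% of loci were higher and 6.38% lower. The tunicamycin groups had Sparc and Postn higher and Spp1 and Sox9 lower, against 9.39% and 7.92%. The thapsigargin groups had Spp1 higher and Sparc, Postn and Tnfrsf11b lower, against 5.58% and 8.19%. Within the close pairs no member passed the limit, where 1.04% of loci did in either direction for Ago2-/- DMSO beside Ago2+/+ tunicamycin, 0.998% for Ago2-/- tunicamycin beside Ago2+/+ thapsigargin and 1.87% for Ago2-/- thapsigargin beside Ago2+/+ DMSO. Of the members at 1 FPKM or more in both groups, Postn passed 2-fold in the second of these pairs, and Sox9 with tunicamycin in Ago2+/+ and with thapsigargin between labels, when no pseudocount is added. Some of the listed members, Postn and Tnfrsf11b, were counted against a group at 0, where the added 1 FPKM sets the size of the ratio.

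The wider skeletal program was read from 5 lists with 46 genes, of which 45 had a locus of their own and 18 a mean of at least 1 FPKM. Phospho1 shared its locus with Zfp652 and was left out, and Ogn and Omd are separate entries of the table over the same interval, so that their fragments may not be fully separated. Of the 9 mineralised matrix proteins, 7 were under 1 FPKM in every group, among them the osteocalcin genes Bglap, Bglap2 and Bglap3, at most 0.254. Mgp, the matrix Gla protein that inhibits mineral, was the widest of the list, at 0.0194, 27.0 and 32.6 FPKM in Ago2+/+ cells under DMSO, tunicamycin and thapsigargin and 27.2, 83.6 and 0.288 FPKM in Ago2-/- cells. Its 2 lowest groups are the same as those of Tnfrsf11b. Ogn, the small leucine-rich proteoglycan osteoglycin, was 3.39 to 25.3 FPKM, again highest in Ago2-/- tunicamycin.

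Regulators of the osteoblast lineage were mostly present, 9 of 12 with a mean of at least 1 FPKM. The homeobox gene Msx2 was listed at 0 where Spp1 was highest, in Ago2+/+ tunicamycin and Ago2-/- DMSO, and was 1.19 to 3.08 FPKM in the other four. Msx1 was likewise lowest there, at 0.429 and 0.375 FPKM, and 2.36 to 4.44 elsewhere. Runx1, a paralog of Runx2 best known from blood formation, was 16.9 and 17.7 FPKM in Ago2-/- DMSO and Ago2+/+ tunicamycin and 4.13 in both Ago2+/+ thapsigargin and Ago2-/- tunicamycin. Dlx3 reached 2.48 and 2.60 FPKM where Spp1 was highest and at most 0.317 elsewhere. Msx1 and Msx2 thus stood low, and Runx1 and Dlx3 high, in the same pair of groups. Atf4, which osteoblasts and the ER stress response share, lay between 394 and 583 FPKM.

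Cartilage genes were nearly absent, 11 of 12 under 1 FPKM in every group, with Col9a1 and Hapln1 listed at 0. The one above it was Col11a1, a fibrillar collagen chain, at 10.8 FPKM in Ago2+/+ thapsigargin and 21.2 in Ago2-/- tunicamycin and at most 0.508 elsewhere. Those are the groups that held Postn. Sox5, a partner of SOX9 in cartilage, reached 0.912 FPKM, and Col2a1, the main collagen of cartilage, 0.425. Sox9 was therefore measured at 1.15 FPKM or more in all groups with Col2a1 under 1.

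Among the genes that couple bone cells to osteoclasts, Csf1, the growth factor that osteoclast precursors need, was 271 FPKM in Ago2+/+ tunicamycin and 258 in Ago2-/- DMSO and 70.1 to 126 in the other groups. Il34, a second ligand of the CSF1 receptor, was 2.11 FPKM in Ago2+/+ thapsigargin and 2.14 in Ago2-/- tunicamycin, and 9.93 to 12.4 elsewhere. Tnfsf11, the gene of RANKL, which osteoprotegerin binds, was 2.28 FPKM in Ago2+/+ DMSO and 1.14 in Ago2-/- thapsigargin and at most 0.401 in the rest. RANKL was thus above 1 FPKM in just the groups in which its decoy receptor Tnfrsf11b was listed at 0 or 0.00346. Tnfrsf11a, the gene of its signalling receptor RANK, stayed at 0.399 or below.

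For phosphate and mineral handling, 4 of 8 genes had a mean of at least 1 FPKM. Ank, which moves pyrophosphate, an inhibitor of mineral, out of cells, was highest in Ago2-/- DMSO, at 101 FPKM, and lowest in Ago2-/- tunicamycin, at 13.4. Phex, a bone peptidase tied to phosphate balance, went from 0.134 to 6.24 FPKM between the same groups. In both genes the order of the groups ran as in Spp1, except that for these the lowest group was Ago2-/- tunicamycin. Enpp1, which makes pyrophosphate, was opposite, at 1.98 and 1.90 FPKM in Ago2+/+ thapsigargin and Ago2-/- tunicamycin and at most 0.448 elsewhere. The phosphate carrier Slc20a1 lay between 55.2 and 135 FPKM.

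Over the 18 skeletal genes with a mean of at least 1 FPKM, 6 were higher and 2 lower past 2-fold on the log2(FPKM + 1) scale with tunicamycin in Ago2+/+, with a median log2 ratio of 0.51, where 7.7% of all loci were higher and 6.32% lower. Thapsigargin in Ago2+/+ had 4 higher and 4 lower, with a median of -0.05, against 7.44% and 5.46% of loci. Tunicamycin in Ago2-/- had 5 higher and 6 lower, at a median of -0.26, against 9.5% and 8.36%. Thapsigargin in Ago2-/- had 3 and 4, at -0.32, against 6.31% and 7.99%. Between labels under DMSO there were 8 higher and 2 lower, at a median of 0.48, against 7.99% and 6.38%. Under tunicamycin there were 5 and 5, at -0.39, against 9.39% and 7.92%, and under thapsigargin 5 and 3, at 0.04, against 5.58% and 8.19%. The lists were chosen with these values known, and nothing particular to them is read from the counts. The median of all loci lay within 0.03 of 0 in each comparison. With thapsigargin in Ago2+/+ and with tunicamycin in Ago2-/-, Mgp, Ogn and Col11a1 were among the higher genes and Runx1, Il34, Ank and Phex among the lower.

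**Figure D4:**
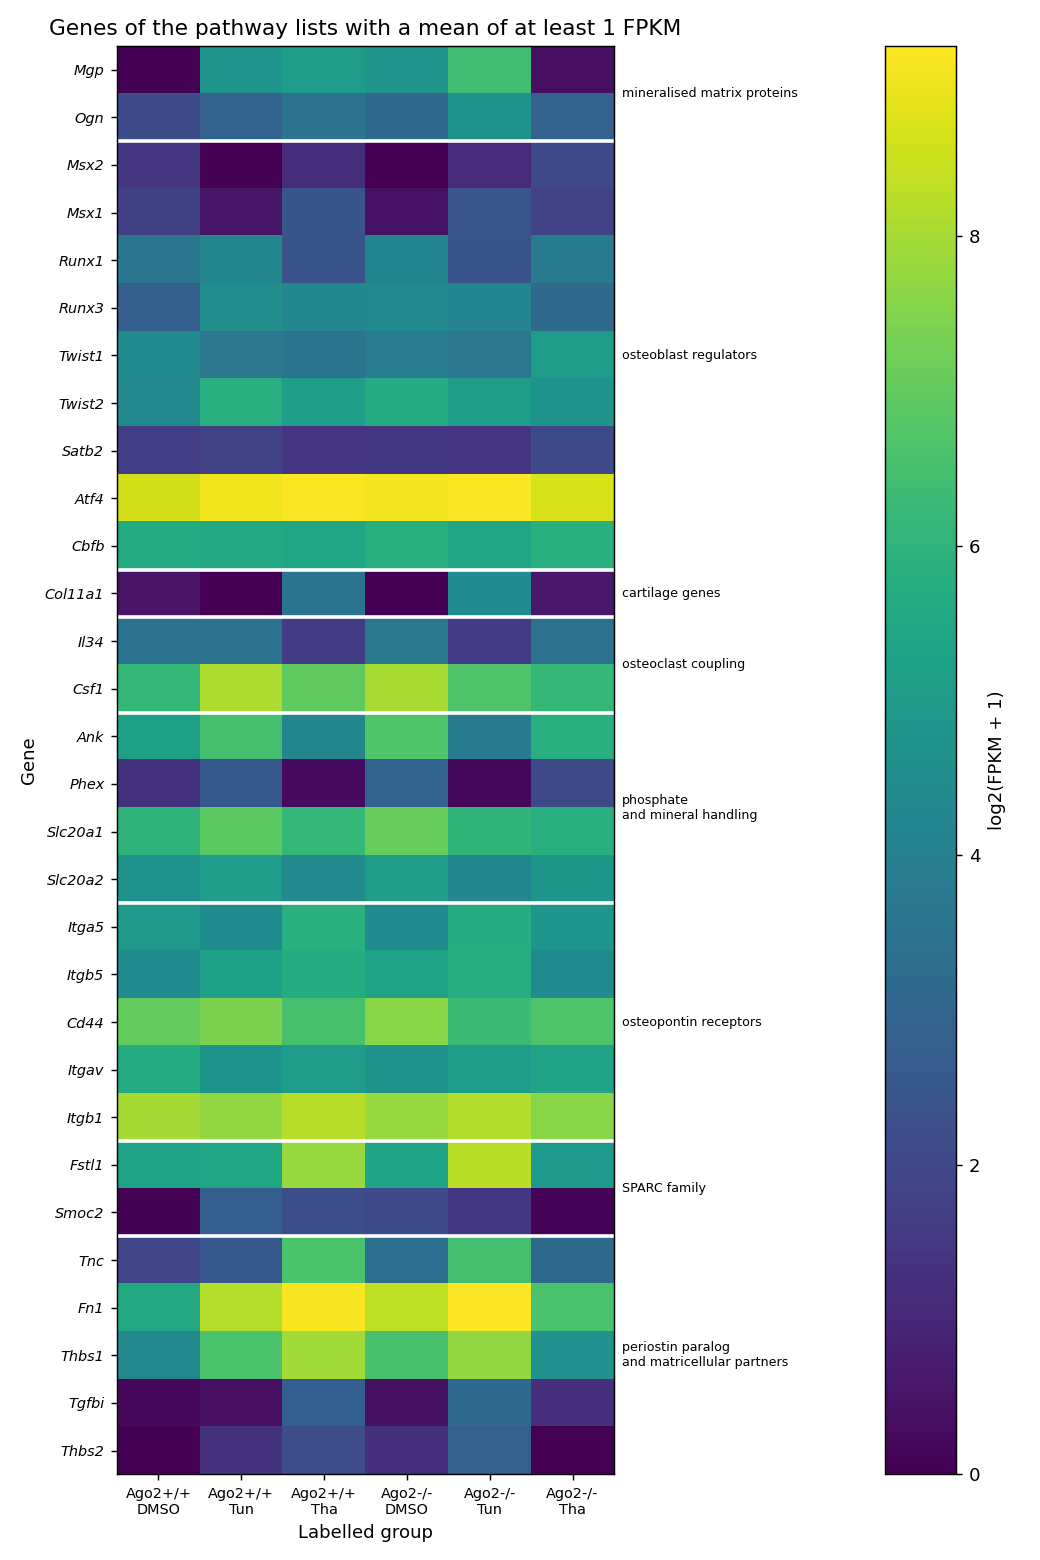
Heat map of levels on the log2(FPKM + 1) scale for the list genes with a mean of at least 1 FPKM (rows, grouped by list) in the 6 labelled groups (columns), with yellow for high levels. Col11a1, Tnc and Fstl1 are brightest in Ago2+/+ thapsigargin and Ago2-/- tunicamycin, while Ank and Csf1 are brightest in Ago2+/+ tunicamycin and Ago2-/- DMSO.

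Receptors of osteopontin varied far less than Spp1. Of 9 genes, 5 had a mean of at least 1 FPKM. Cd44, the hyaluronan receptor that osteopontin also binds, was 77.0 to 190.1 FPKM and was highest in Ago2-/- DMSO and lowest in Ago2-/- tunicamycin. The integrin subunits Itgb5 (20.7 to 52.7 FPKM), Itga5 (21.5 to 57.8) and Itgav (25.1 to 50.8) followed other orders. Itgb3, the partner of Itgav in the classical osteopontin receptor, was at most 0.666 FPKM. Past 2-fold on the log2(FPKM + 1) scale was Itgb5 with thapsigargin in Ago2+/+ (higher), as were 7.44% of all loci. With tunicamycin in Ago2-/-, Itga5 was higher and Cd44 lower, against 9.5% and 8.36%. The same 2 genes passed in the same directions between labels under tunicamycin, against 9.39% and 7.92%. Itgb5 and Itga5 were lower in Ago2-/- between labels under thapsigargin, against 8.19%. The list was chosen with these values known, and nothing particular to it is read from the counts. Without a pseudocount Itgav also passed, at 2.02-fold lower in Ago2-/- than in Ago2+/+ under DMSO. The median log2 ratio of these 5 receptors lay between -0.62 and 0.42 over the comparisons, and that of all loci within 0.03 of 0.

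Relatives of Sparc were mostly silent, 5 of 7 under 1 FPKM in every group. Fstl1, a secreted follistatin-like relative, was 222 FPKM in Ago2+/+ thapsigargin and 312 in Ago2-/- tunicamycin and 29.1 to 42.2 elsewhere, with the same highest and lowest groups as Sparc. Smoc2, a calcium-binding matricellular protein, was 5.82 FPKM in Ago2+/+ tunicamycin, 3.64 in Ago2+/+ thapsigargin, 3.23 in Ago2-/- DMSO and 1.80 in Ago2-/- tunicamycin, and at most 0.0534 in the other two. That split of the groups is the one of Tnfrsf11b and Mgp. Spock2 and Smoc1 reached 0.415 and 0.205 FPKM.

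The periostin paralog Tgfbi and 4 further matricellular or adhesive proteins were highest where Postn was. Tnc, tenascin-C, was 97.1 FPKM in Ago2+/+ thapsigargin and 90.1 in Ago2-/- tunicamycin, and 2.82 to 9.42 elsewhere. Fn1, fibronectin, was 567 and 599.5 FPKM in those groups, 290.3 in Ago2+/+ tunicamycin, 326 in Ago2-/- DMSO, 95.2 in Ago2-/- thapsigargin and 46.4 in Ago2+/+ DMSO. Thbs1, thrombospondin 1, stood at 246 and 213 FPKM, against 19.2 to 97.2 in the other groups. Tgfbi was 5.81 and 7.97 FPKM against at most 1.43. On the log2(FPKM + 1) scale all 5 were past 2-fold higher with thapsigargin in Ago2+/+ (median log2 ratio 3.59), as were 7.44% of all loci. In Ago2-/- over Ago2+/+, 5 were higher under tunicamycin (1.45), against 9.39% of loci, and 5 lower under thapsigargin (-2.56), against 8.19%. With tunicamycin 3 of 5 were higher in Ago2+/+ (1.35), against 7.7%, and 4 in Ago2-/- (1.54), against 9.5%. With thapsigargin in Ago2-/- 3 were lower (-1.28), against 7.99%, and under DMSO 4 were higher in Ago2-/- than in Ago2+/+ (1.45), also against 7.99%. This list too was chosen with these values known, and nothing particular to it is read from the counts.

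The loci whose profile over the 6 groups came nearest to a member were found by the root mean square difference of log2(FPKM + 1), each centred on its own mean, for the members with a log2 range of at least 2. This is a likeness over 6 pooled values, many of which are set by the close pairs. Nearest to Spp1 were Ifi202b (0.52), Cadm1 (0.54), Msln (0.57), Gsta4 (0.70) and Gm10020 (0.71). Ifi202b, an interferon-inducible DNA-binding protein, was 66.9 FPKM in Ago2-/- DMSO and listed at 0 in Ago2+/+ thapsigargin and Ago2-/- tunicamycin. Msln, the cell-surface protein mesothelin, was 279 and 263 FPKM in Ago2-/- DMSO and Ago2+/+ tunicamycin and 4.64 and 6.66 in the lowest groups. Cadm1, an adhesion molecule, went from 48.1 to 0.00556 FPKM and Gsta4, a glutathione transferase, from 88.8 to 1.49. For Ifi202b and Cadm1 the added 1 FPKM sets how deep the profile falls in the lowest groups.

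Nearest to Sparc were the zinc finger gene Zfp9 (0.16), Dram1 (0.16), a lysosomal membrane protein, and Pdia5 (0.17), a disulfide isomerase of the ER. Pdia5 was 46.9 and 48.3 FPKM in Ago2+/+ thapsigargin and Ago2-/- tunicamycin and 9.72 to 15.2 in the other groups. Dram1 ran from 0.0486 to 4.16 FPKM, levels at which the added 1 FPKM narrows its range. The likeness was not repeated with a lower pseudocount. Nearest to Postn were Itga11 (0.16), a collagen-binding integrin subunit, Cemip (0.17), which takes part in hyaluronan breakdown, and Myrf (0.17), a membrane-bound transcription factor. Itga11 was 4.29 and 7.27 FPKM in the groups that held Postn and at most 0.0238 elsewhere. Cemip and Myrf were also near 0 outside those groups, so the added 1 FPKM sets the lowest part of all these profiles. The distances of the loci nearest to Spp1 were larger than those of the loci nearest to Sparc and Postn, and the range of Spp1 was wider. Ordering loci by Pearson's r in place of the difference named other loci for Spp1 and Sparc, with 0 of 5 and 0 of 3 in common, and 1 of 3 in common for Postn.

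**Figure D5:**
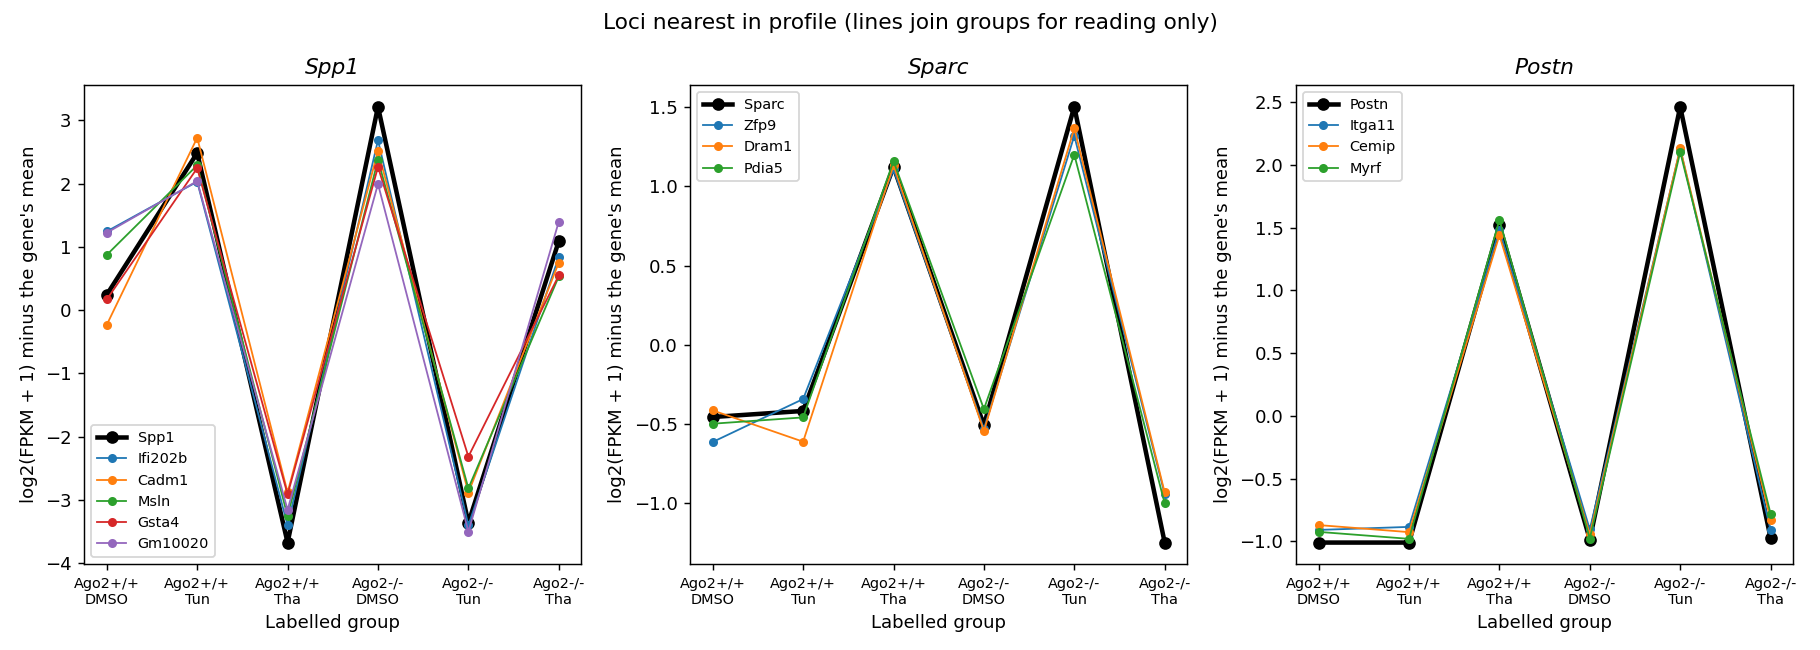
Profiles of Spp1, Sparc and Postn (black) and of the loci nearest to each (colours) as log2(FPKM + 1) minus the mean of the gene (y axis) in the 6 labelled groups (x axis), where lines join groups for reading only. The profile of Spp1 has its troughs where those of Sparc and Postn peak, in Ago2+/+ thapsigargin (16.0 FPKM of Spp1) and Ago2-/- tunicamycin (20.1 FPKM).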

How the data were processed

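The 18 RNA-seq libraries fall into 6 groups of 3. By the study's methods and the submitters' processing notes, the authors aligned reads with HISAT2 2.1.0 to GRCm38 (Ensembl release 91), assembled them with StringTie 1.3.4d and quantified them with Cuffdiff 2.2.1. FastQC 0.11.7 is also named. The deposited table has 772485 rows, 1 for each of 51499 loci and 15 pairs of groups, and its FPKM is 1 value that the authors pooled over the libraries of a group. Depth, library scaling and strandedness are not stated there. Columns with the authors' own fold changes, test statistics, p-values and q-values were not used.

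Groups followed the library titles, in which Ago2+/+ libraries are named DCR1, a name the sources used here do not explain. Ratios were taken on the log2(FPKM + 1) scale, which understates differences of low genes. A locus was counted at a ratio of at least 2-fold, among loci averaging 1 FPKM or more over the groups. The 9 members were all counted, without that filter, beside shares of the filtered loci. No test was run, as no group has a replicate value. Folds in the text are ratios of FPKM without a pseudocount, for groups of at least 1 FPKM. The members and lists were chosen with earlier results of these data known. Named were all members and, of each list, up to 4 genes with the largest log2 range, besides the markers and label checks; further list genes were named after their values were seen. The alternatives were a pseudocount of 0.1 FPKM, a limit of 4-fold, no filter, upper quartile scaling and centring on the median. Positions are 1-based, with 1 added to the table's starts, which count from 0. Scripts ran in Python 3.11.15 with pandas 2.3.3, numpy 2.4.6 and matplotlib 3.10.9.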

Additional observations from a re-analysis of the deposited data

Results flagged for a closer look

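For Spp1 the ratio of tunicamycin to DMSO had opposite signs under both labels. It was 2.24 on the log2(FPKM + 1) scale in the groups labelled Ago2+/+ and -6.58 in those labelled Ago2-/-, a difference of -8.82. The difference was not tested, since each group has 1 pooled value. Of the groups compared, Ago2+/+ tunicamycin and Ago2-/- DMSO form a close pair, with 1.04% of loci past 2-fold. Genotype, stressor and cells cannot be told apart in either ratio.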

How the results depend on the processing

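No value by library was used, so leaving out replicates could not be done. No paired analysis was possible because the table holds 1 pooled value per group, and the 4 libraries with conflicting labels could not be set aside. With a limit of 4-fold in place of 2-fold, the number of members past it dropped from 3 to 1 with tunicamycin in Ago2+/+, from 4 to 2 with thapsigargin in Ago2+/+, from 2 to 1 with thapsigargin in Ago2-/-, from 4 to 1 between labels under DMSO and from 4 to 2 between labels under tunicamycin. Among all loci averaging 1 FPKM or more the counts also dropped. In the same order of comparisons they went from 1673 to 611, 1539 to 582, 1706 to 614, 1714 to 634 and 2065 to 687. With a pseudocount of 0.1 FPKM, 1 member, Postn, passed 2-fold between Ago2-/- tunicamycin and Ago2+/+ thapsigargin, where none did before. The member counts otherwise stayed within 1.5-fold, and upper quartile scaling and centring changed none of them by more. Dropping the filter could not change them, since the members were counted without it. No member ratio past 2-fold changed sign; centring shifted ratios at or near 0, of Ibsp, Postn and Sp7, to the other side of 0 or off it. With the pseudocount of 0.1 FPKM the loci past 2-fold within close pairs went from 223 to 427 for Ago2-/- thapsigargin beside Ago2+/+ DMSO, from 119 to 188 for Ago2-/- tunicamycin beside Ago2+/+ thapsigargin and from 124 to 172 for the third pair, while the comparisons by label held 2006 to 2623. With the lower pseudocount 12 of 90 member ratios moved by over 1.5-fold, all of Alpl, Postn or Tnfrsf11b. Unknown depth limits what can be read from values under 1 FPKM.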

Other observations

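Some markers of lineages other than bone also split by the close pairs, though others of the same lists did not follow them. Myf5, a regulator of early skeletal muscle, was 18.9 FPKM in Ago2+/+ tunicamycin and 11.8 in Ago2-/- DMSO, the groups with the highest Spp1, and was listed at 0 in the other four. Des, the muscle intermediate filament protein desmin, was 2.95 FPKM in Ago2+/+ DMSO and 2.58 in Ago2-/- thapsigargin. It was lowest where Myf5 was found, at 0.262 FPKM in Ago2+/+ tunicamycin and 0.250 in Ago2-/- DMSO. Myod1 and Myog reached only 0.0118 and 0.0201 FPKM. Pparg, the regulator of fat cell formation, was 4.13 FPKM in Ago2+/+ thapsigargin and 3.09 in Ago2-/- tunicamycin, the groups that held Postn and Col11a1. The other adipocyte markers did not share this split. Fabp4 was highest in Ago2-/- thapsigargin, at 1.55 FPKM, and Adipoq and Plin1 reached only 0.0467 and 0.0544. The 4 muscle markers summed to between 0.397 and 19.2 FPKM over the groups and the 4 adipocyte markers to between 0.244 and 4.81. Myf5 made up most of the highest muscle sum. Each of the 5 epithelial markers was under 1 FPKM in every group, but their sum was 2.003 FPKM in Ago2-/- DMSO and 1.48 in Ago2+/+ tunicamycin, where Spp1 was highest, and 0.198 to 0.393 elsewhere. The keratin genes Krt8, Krt18 and Krt14 made up most of it, at 0.65, 0.606 and 0.673 FPKM in Ago2-/- DMSO. Cdh1 and Epcam went the other way, highest in Ago2-/- tunicamycin, at 0.181 and 0.0977 FPKM. Next for both was Ago2+/+ thapsigargin, at 0.119 and 0.0394. The 4 endothelial markers were under 1 in every group, with a sum of at most 0.465. Their part in the levels of the skeletal genes was not tested.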
